A study of Mus musculus with 6 samples.

Results

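This is a description of 39 genes that charge transfer RNAs with amino acids, make asparagine, serine and one-carbon units, or import amino acids, in myeloid cells of mice with acute myocardial infarction. They were chosen by name: 20 cytosolic and 8 mitochondrial aminoacyl-tRNA synthetase genes, 4 genes of asparagine and serine synthesis, 5 folate one-carbon enzymes and the 2 subunits of an amino acid transporter. All 39 had a probe, and each is represented by its probe with the highest mean log2 signal. Of the 16365 genes tested, 38 were members, and Nars2, the mitochondrial asparaginyl-tRNA synthetase gene, was left out because its only probe was well above background on none of the 6 arrays. Infarcted left ventricles gave 3 samples of these cells, called heart 1, heart 2 and heart 4, and spleens gave another 3, called spleen 1, spleen 2 and spleen 4. All were taken on day 3 after the infarction. All animals were C57BL/6N wild-type mice with an infarction, and animals without one were not analysed here. Spleens and ventricles were handled individually, but whether a number marks the same mouse in both tissues is not stated, so p-values measure the spread between these samples. The flow cytometry gate kept CD45-high, CD11b-high cells that stained weakly for CD45R/B220, CD90.2, NK-1.1, CD49b and Ly6G, which mark lymphocytes, natural killer cells and neutrophils. RNA was amplified and measured on single-colour arrays. The comparison asked how RNA levels in the infarcted ventricle differed from those in the spleen.

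Aminoacyl-tRNA synthetases attach each amino acid to its transfer RNA, and most amino acids have a cytosolic and a separate mitochondrial enzyme encoded in the nucleus. Serine is built from a glycolytic intermediate by PHGDH, PSAT1 and PSPH, and the SHMT and MTHFD enzymes move its side-chain carbon onto folate for purine, thymidylate and formyl-methionine synthesis. When amino acids run short, uncharged transfer RNA activates the kinase GCN2 and the transcription factor ATF4 is translated. ATF4 binds C/EBP-ATF response elements, or CARE, at Asns, at serine pathway genes and at many cytosolic synthetase genes. SLC3A2, also called CD98 heavy chain, carries SLC7A5 and several other light chains to the cell surface, where they exchange amino acids.

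The CARE sequences of the members are shown because they are the regulatory element that these genes are best known to share. RefSeq promoters of the GRCm38.p6 build, from 250 bases before to 50 after the start, were available for 31 members. Those of Cars, Hars, Lars, Nars, Rars, Vars, Wars and Slc7a5 were not used here. The letters searched were TGATGNAAN on both strands. A match was found for 6 of the 31 members (19.4%) and for 1215 of all 27025 genes with a promoter (4.5%). The members were Asns, Aars, Gars, Tars, Iars and Yars. Below, 50 bases around each match before the start are given (for Asns, Gars and Tars the 50 bases just before it), 5′ to 3′ on the strand of the gene, with the match in capitals.
Asns (chr6:7693210-7693259, − strand): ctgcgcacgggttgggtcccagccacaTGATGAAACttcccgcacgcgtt
Gars (chr6:55037951-55038000, + strand): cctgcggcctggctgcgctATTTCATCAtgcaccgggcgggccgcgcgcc
Tars (chr15:11399659-11399708, − strand): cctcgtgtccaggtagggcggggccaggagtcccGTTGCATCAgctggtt
Aars (chr8:111033692-111033741, + strand): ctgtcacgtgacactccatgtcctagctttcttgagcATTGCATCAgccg
The Asns match reads along the gene, and those of Gars, Tars and Aars read on the opposite strand. In Iars (ATTGCATCA) and Yars (TGATGCAAC) the match lay 7 and 4 bases after the start, and Aars had a further match there. The E-box CACGTG, bound by MYC and related factors, occurred in the promoters of Aars, Farsb, Iars and Tars, 4 of 31 members (12.9%) against 8.09% of all genes, without overlapping a CARE match. In Aars it lies in the window printed above, before the CARE match. A match describes these letters and is not a measured binding site.

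The share of these genes that was called was close to that of all tested genes, and few members carried the change. Of the 38 tested, 3 were called higher in heart (Slc3a2, Rars and Aars) and 2 lower (Vars and Psph) by limma, at a threshold of 0.05 on the p-value after Benjamini-Hochberg adjustment across the tested genes. That is 13.2% of the members, against 15.4% of all tested genes (8.88% higher and 6.52% lower). The median log2 difference, heart minus spleen, was 0.08 for the members and 0.10 for all genes. Scaling arrays to their median moved both, to 0.20 and 0.22, and quantile scaling moved them to −0.05 and 0.04. All 3 heart values lay above all 3 spleen values for 12 members (31.6%, against 24.1% of all genes) and below them for 3 members (7.89%, against 16.6%), where 40.7% of all genes did not overlap in either direction. Among the 12, Eprs was nearly a tie, with −0.7601 in heart 4 and −0.7602 in spleen 4. Of the 33 members not called, 23 had a 95% interval of the difference that lay within 1 log2 unit of 0 on both sides, which leaves out a 2-fold change in either direction. The intervals of the other 10 (Nars, Eprs, Dars, Yars, Asns, Phgdh, Shmt2, Mthfd1, Mthfd2 and Slc7a5) reached further. The calls of Aars, Rars, Vars and Psph were each lost when any single heart array was left out, while Slc3a2 stayed called without each of the 6 arrays. The counts over all genes moved as well, from 1454 higher and 1067 lower to between 321 and 352 higher and 123 and 151 lower without a heart array, and to 2491 and 1599 without spleen 4. In sorted cells measured in bulk, fewer cells of a type and less RNA per cell cannot be told apart.

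**Figure D1:**
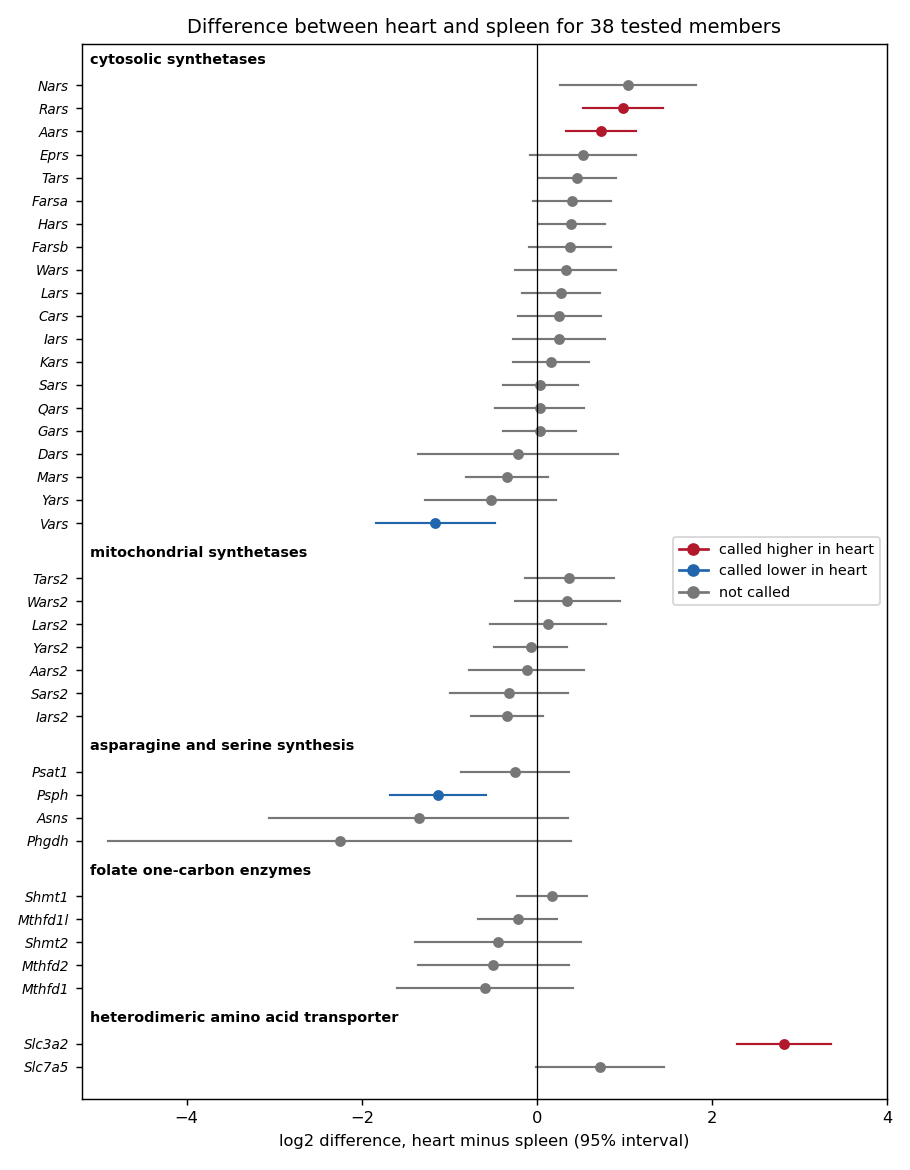
The log2 difference between heart and spleen (x axis, heart minus spleen) is plotted for the 38 tested members, grouped by role, as a point with its 95% interval from the moderated fit. Red marks members called higher in heart, blue those called lower and grey those not called. Most cytosolic synthetases lie slightly to the right of 0 (Gars, Kars, Qars and Sars turn negative under quantile scaling), the serine and one-carbon genes mostly to the left, and Slc3a2 lies alone at 2.82.

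Marker genes of several cell types differed between the arrays. Per array, 53 to 63.8% of probes stood well above background, and the 75th percentile of the signal was 1451 to 1870 intensity units, with 0 saturated spots. The CD45 gene Ptprc, the CD11b gene Itgam and the monocyte and macrophage genes Csf1r and Lyz2 were well above background on all 6 arrays and overlapped between tissues. The other 4 genes of that list, Fcgr1 (2.25, called higher), Cd68 (1.85), Adgre1 (1.19) and Ccr2 (1.07), were above every spleen on each heart array. Marker sums add the linear levels of a list in units of the 75th percentile of the array. For these 8 genes the sum was 183.9, 338 and 402.1 in spleen 1, spleen 2 and spleen 4 and 360.1 to 423.9 in the hearts, so that spleen 4 lay within the heart range. For 10 neutrophil and granulocyte precursor markers the sum was 849, 1393 and 550.2 in spleen 1, spleen 2 and spleen 4, and 24.9 to 32.6 in the hearts, with 9 of 10 called lower. For 8 markers of cycling cells it was 51.2, 113 and 19.1 in the same spleens and 13.4 to 14.2 in the hearts, with 7 of 8 called lower. Top2a and Cdk1 were tested only because of their spleen signal, and without them 5 of 6 were called lower. For 6 B cell markers the sum was 106 in spleen 1, 4.24 in spleen 2 and 3.66 in spleen 4, against 0.81 to 1.32 in the hearts. For 6 fibroblast markers it was 1.58 to 5.25 in the hearts and 0.12 to 0.18 in the spleens, where Col3a1, Lum and Pdgfra were not well above background. The part of these cells in the results below was not tested.

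Slc3a2, the heavy chain that brings several amino acid exchangers to the cell surface, had the largest difference of the group. Its log2 level, in which 0 is the 75th percentile of the array, was 5.53, 5.37 and 5.43 in heart 1, heart 2 and heart 4 and 2.93, 2.23 and 2.70 in spleen 1, spleen 2 and spleen 4. The lowest heart value stood far above the highest spleen value. The rise was 7.07-fold, a log2 difference of 2.82 ± 0.23 (SE, adjusted p = 0.00167, probe at mm9 chr19:8782189-8782248). Within the earlier of the 2 dates in the sample titles the difference was 2.87, within the later 2.73, and between heart 1 and spleen 4, the only pair of different tissues on the same slide, 2.83.

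Slc7a5 encodes LAT1, the light chain that imports leucine and other large neutral amino acids. It did not pass the test, with a log2 difference of 0.72 ± 0.30 (SE, adjusted p = 0.161) and a 95% interval from −0.01 to 1.46. Its levels were −0.63, −0.63 and −0.56 in the hearts and −0.68, −1.81 and −1.51 in the spleens. The hearts were all higher, but spleen 1 came close to the lowest heart. Without spleen 1 it was called (1.05, adjusted p = 0.0174). Its dimmer probe gave a smaller difference of 0.08 ± 0.20 (adjusted p = 0.839).

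Other light chains that pair with SLC3A2 were measured too. Slc7a8, which encodes LAT2, stood at 3.47, 3.07 and 3.40 in the hearts and at −1.79, −1.48 and 0.39 in the spleens, and rose by 4.27 ± 0.56 (SE, adjusted p = 0.00757). Slc7a11, the cystine exchanger of glutathione supply, had no spleen array with a signal well above background and stood at least 17.5-fold above that background in the hearts (limma adjusted p = 0.0142), with 1 of its 3 spleen spots left out as an outlier. The lower bound compares its heart mean with the lowest level called well above background on each spleen array, or with its own level where that was higher. Slc7a11 was tested only because of its heart signal. Slc7a7 and Slc7a6, which exchange basic for neutral amino acids, were at 1.66 ± 0.45 (adjusted p = 0.0555) and 0.77 ± 0.23 (adjusted p = 0.0688) and were not called. On the whole list of amino acid transporters, 6 of 13 tested genes were called higher (46.2%, against 8.88% of all genes) and 0 lower (against 6.52%), and the median difference was 0.89 against 0.10 for all genes. Without Slc7a11 the count was 5 of 12 and the median 0.84. The gene lists were chosen with earlier results of these data known. Their shares, here and below, describe the listed genes and are not independent evidence. The serine and alanine carrier gene Slc1a4 was among them (2.33 ± 0.39, adjusted p = 0.0157). The other 3 called, named after their values were seen, were Slc36a4, Slc43a2 and Slc38a2. The glutamine carrier gene Slc1a5 was at −0.44 ± 0.27 (adjusted p = 0.318).

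**Figure D2:**
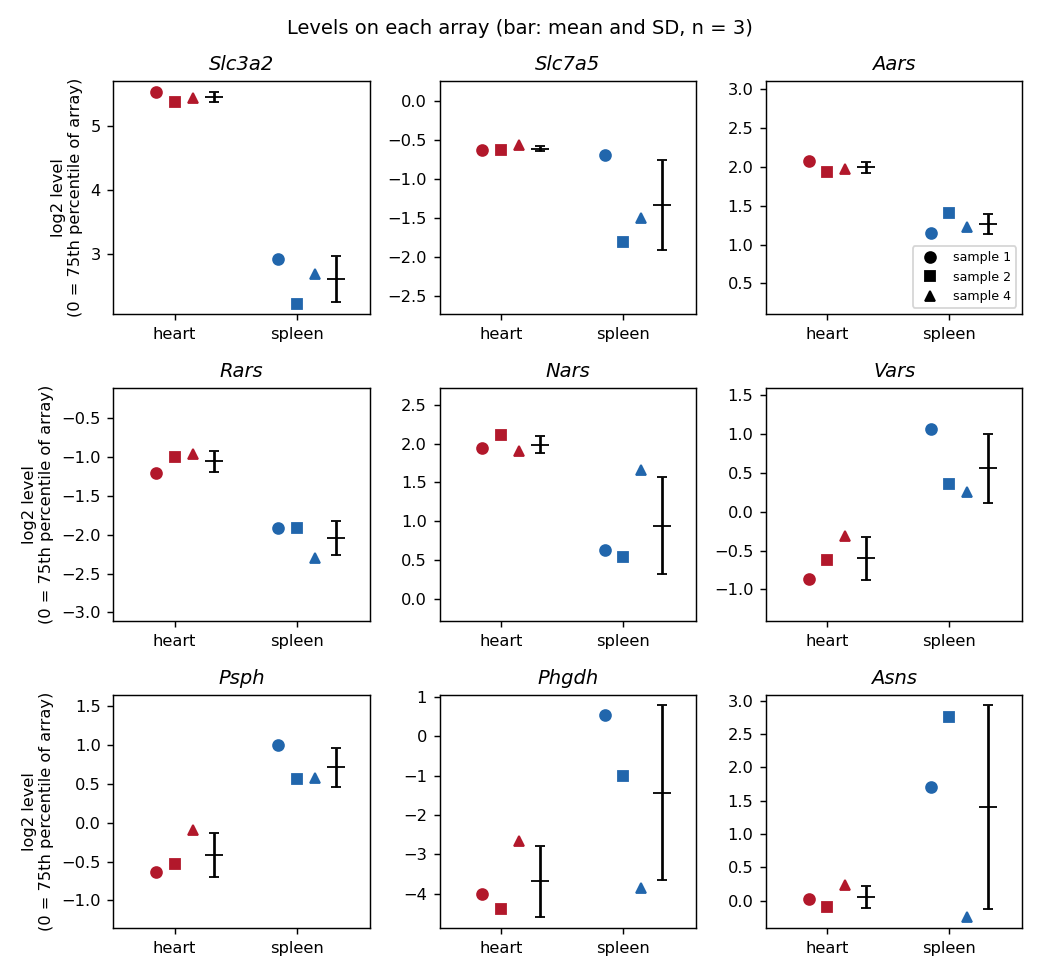
Log2 levels of 9 members on each array (y axis, where 0 is the 75th percentile of the array) are shown for heart (red) and spleen (blue), with circles, squares and triangles for samples 1, 2 and 4 and a bar for the mean and SD of 3 samples. Slc3a2, Slc7a5, Aars, Rars, Nars, Vars and Psph separate the tissues on every array, though Slc7a5 and Nars were not called. For Phgdh and Asns spleen 4 lies at the level of the hearts and the other spleens lie above it.

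Among the 20 cytosolic synthetases, 16 had a positive difference (80%, against 58% of all tested genes) and 4 a negative one, and the median was 0.27, with Gars, Kars, Qars and Sars turning negative under quantile scaling. Of the 20, 2 were called higher (10%, against 8.88%) and 1 lower (5%, against 6.52%), shares near those of all tested genes. Arginyl-tRNA synthetase (Rars) was at −1.21, −1.0 and −0.97 in the hearts and at −1.92, −1.92 and −2.30 in the spleens. Its rise was 1.98-fold, a log2 difference of 0.98 ± 0.19 (SE, adjusted p = 0.0222). The Rars probe crosses an intron, covering 60 bases of transcript over 1177 bases of mm9 (chr11:35633429-35634605, − strand), and it is printed as the sequence whose signal stands for the gene.
Rars probe: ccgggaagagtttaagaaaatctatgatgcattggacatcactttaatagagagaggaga
Alanyl-tRNA synthetase (Aars) was at 2.07, 1.94 and 1.97 in the hearts and at 1.15, 1.40 and 1.23 in the spleens. The groups did not overlap, and the rise was 1.66-fold (0.73 ± 0.17 SE, adjusted p = 0.0334, mm9 chr8:113579376-113579434). Its other probe was well above background on none of the 6 arrays.

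Valyl-tRNA synthetase (Vars) went the other way. It was at −0.87, −0.62 and −0.32 in the hearts and at 1.06, 0.35 and 0.25 in the spleens, so that every heart value was below every spleen value. The fall was 2.23-fold (−1.16 ± 0.28 SE, adjusted p = 0.0398, mm9 chr17:35152339-35152398). It was −1.45 within the earlier date, −0.57 within the later and −1.12 on the slide that holds both tissues. With date as a block Vars was no longer called (adjusted p = 0.0615). The same 3 differences were 0.81, 1.33 and 1.09 for Rars and 0.73, 0.74 and 0.84 for Aars.

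Asparaginyl-tRNA synthetase (Nars) had the largest positive difference among the synthetases and was not called. Its levels were 1.95, 2.11 and 1.90 in the hearts and 0.63, 0.55 and 1.66 in the spleens. The groups did not overlap, but spleen 4 lay closer to the hearts than to the other spleens. The difference was 1.04 ± 0.32 (SE, adjusted p = 0.0812). Without spleen 4 it was 1.40 and called (adjusted p = 0.00401).

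The remaining 16 cytosolic synthetases were not called. Heart values lay above all spleen values for Eprs (0.52), Tars (0.46), Farsa (0.40), Hars (0.39), Farsb (0.38) and Lars (0.27), with adjusted p from 0.142 to 0.369. For Eprs this was nearly a tie, with −0.7601 in heart 4 and −0.7602 in spleen 4. Farsa and Farsb encode the α and β subunits of phenylalanyl-tRNA synthetase, and their differences were alike in size. The tissues overlapped for Wars (0.33), Cars (0.26), Iars (0.25), Kars (0.16), Sars (0.04), Qars (0.03) and Gars (0.03). Gars and Kars each make both the cytosolic and the mitochondrial enzyme. Mars (−0.34), Dars (−0.22) and Yars (−0.53) had negative differences with overlap, and Yars was well above background on only 1 of 3 heart arrays. Wars, which interferon gamma is known to induce, was at 3.25, 3.08 and 3.33 in the hearts and at 2.63, 2.71 and 3.34 in the spleens, so that spleen 4 was at the top of the heart range. Its other probe gave 0.07 ± 0.24 (adjusted p = 0.868), with 1 spleen spot left out. Among the 6 members with a CARE match, Aars was called higher, while Tars (0.46), Iars (0.25), Gars (0.03), Yars (−0.53) and Asns (−1.35) were not called and ran in both directions.

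The multi-synthetase complex binds several of these enzymes through scaffold proteins. The scaffold gene Eef1e1 rose, named here after its values were seen (1.05 ± 0.24 SE, adjusted p = 0.0323), with 2.31, 2.28 and 2.29 in the hearts and 1.69, 0.94 and 1.09 in the spleens. Aimp2, the brightest gene of its list that was not called, was at 0.51 ± 0.18 (adjusted p = 0.102), and Aimp1 at −0.03 ± 0.21 (adjusted p = 0.937). The list of other synthetases and scaffolds had 1 of 16 called higher (6.25%, against 8.88% of all genes) and 4 lower (25%, against 6.52%). Its median was −0.03, against 0.10 for all genes.

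Mitochondrial synthetases among the members did not pass the test. Of 7 tested, 0 were called by limma, where 15.4% of all genes were. An unadjusted p under 0.05 was found for 0 of the 7 and for 5172 of all 16365 genes. Their differences ran from −0.34 (Iars2) to 0.37 (Tars2), with Wars2 at 0.35, Lars2 at 0.12, Yars2 at −0.07, Aars2 at −0.12 and Sars2 at −0.32, and Yars2 and Aars2 turned positive under median scaling. Tars2 was higher on every heart array and Iars2 lower, and the other 5 overlapped. All 7 intervals lay within 1 log2 unit of 0. Of 9 tested mitochondrial enzymes outside the member list, 4 were called lower in heart and 0 higher, where 6.52% and 8.88% of all genes were. Prolyl-tRNA synthetase 2 (Pars2) was at −3.31, −2.51 and −2.64 in the hearts and at −0.24, −0.76 and −0.88 in the spleens. It fell by 2.19 ± 0.29 on the log2 scale (adjusted p = 0.00781). Mars2 fell by 1.34 ± 0.34 (adjusted p = 0.046) and Cars2, named after its values were seen, by 0.65 ± 0.17 (adjusted p = 0.0483). The difference between these and the member enzymes was not tested.

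Genes of serine and asparagine synthesis all had negative differences, as did 6876 of all 16365 genes, and 1 of 4 was called lower (25%, against 6.52% of all genes). Within the later date only Psph stayed negative, with Asns at 0.49, Phgdh at 1.19 and Psat1 at 0.16. Psph, the phosphatase of the last step of serine synthesis, was at −0.63, −0.53 and −0.10 in the hearts and at 1.0, 0.56 and 0.58 in the spleens. The tissues did not overlap, and the fall was 2.19-fold (−1.13 ± 0.23 SE, adjusted p = 0.0242, mm9 chr5:130271441-130271500). Its other probe was called too, with −1.59 ± 0.22 (adjusted p = 0.00898 over all probes). The difference was −1.36 within the earlier date, −0.67 within the later and −1.21 on the slide that holds both tissues.

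Phgdh, the enzyme of the first step, varied more than any other member. Its levels were −4.01, −4.40 and −2.66 in the hearts and 0.55, −1.01 and −3.85 in the spleens. Spleen 1 and spleen 2 were far above every heart, and spleen 4 lay among the hearts. The difference of −2.25 ± 1.10 was not called (SE, adjusted p = 0.217, interval from −4.90 to 0.39). The other Phgdh probe had the same order of spleens, with 0.72, −0.80 and −3.87, and gave −3.08 ± 1.09 (adjusted p = 0.112). Psat1, the transaminase of the middle step, was at 1.18, 1.09 and 1.28 in the hearts and at 1.23, 1.94 and 1.11 in the spleens (−0.25 ± 0.26, adjusted p = 0.565). The tissues overlapped, and spleen 2 was the highest array.

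Asns, which makes asparagine from aspartate and glutamine, stood at 0.02, −0.09 and 0.24 in the hearts. In the spleens it was at 1.71, 2.76 and −0.25, so that spleen 4 was the lowest array of all and spleen 2 the highest. The difference was −1.35 ± 0.71 (SE, adjusted p = 0.251). Without spleen 4, Asns (−2.17, adjusted p = 0.00962) and Phgdh (−3.46, adjusted p = 0.0194) were both called lower in heart. Between heart 4 and spleen 4, the pair of the later date, the differences had the opposite sign (0.49 for Asns and 1.19 for Phgdh). Spleen 2, with the most Asns, also had the highest marker sums for neutrophil precursors and cycling cells, and spleen 1, with the most Phgdh, the highest B cell sum. Spleen 1 was also highest for T and natural killer cell markers (54.7, against 13.6 in spleen 2 and 3.08 in spleen 4). The same held for erythroid markers (4.21, against 0.82 and 0.58). The part of all these cells in the Asns and Phgdh values was not tested.

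None of the 5 folate one-carbon enzymes was called by limma, where 15.4% of all genes were. An unadjusted p under 0.05 was found for 0 of them and for 5172 of all 16365 genes. Mthfd2, the mitochondrial dehydrogenase of dividing and activated cells, was at −0.72, −0.73 and −0.79 in the hearts, which agreed closely with one another. In the spleens it was at −0.58, 0.58 and −0.74, with spleen 2 alone above the rest (−0.50 ± 0.36, adjusted p = 0.399). Mthfd1, the cytosolic trifunctional enzyme, was at −1.38, −1.30 and −1.08 in the hearts and at 0.32, −1.12 and −1.17 in the spleens, with spleen 1 alone above the rest (−0.60 ± 0.42, adjusted p = 0.383). Shmt2, the mitochondrial serine hydroxymethyltransferase, was at −0.01, −0.55 and −1.52 in the spleens and between −1.38 and −0.86 in the hearts (−0.44 ± 0.40, adjusted p = 0.498). Its cytosolic counterpart Shmt1 (0.17 ± 0.17, adjusted p = 0.541) and the mitochondrial formate enzyme gene Mthfd1l (−0.22 ± 0.19, adjusted p = 0.48) had intervals within 1 log2 unit of 0.

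**Figure D3:**
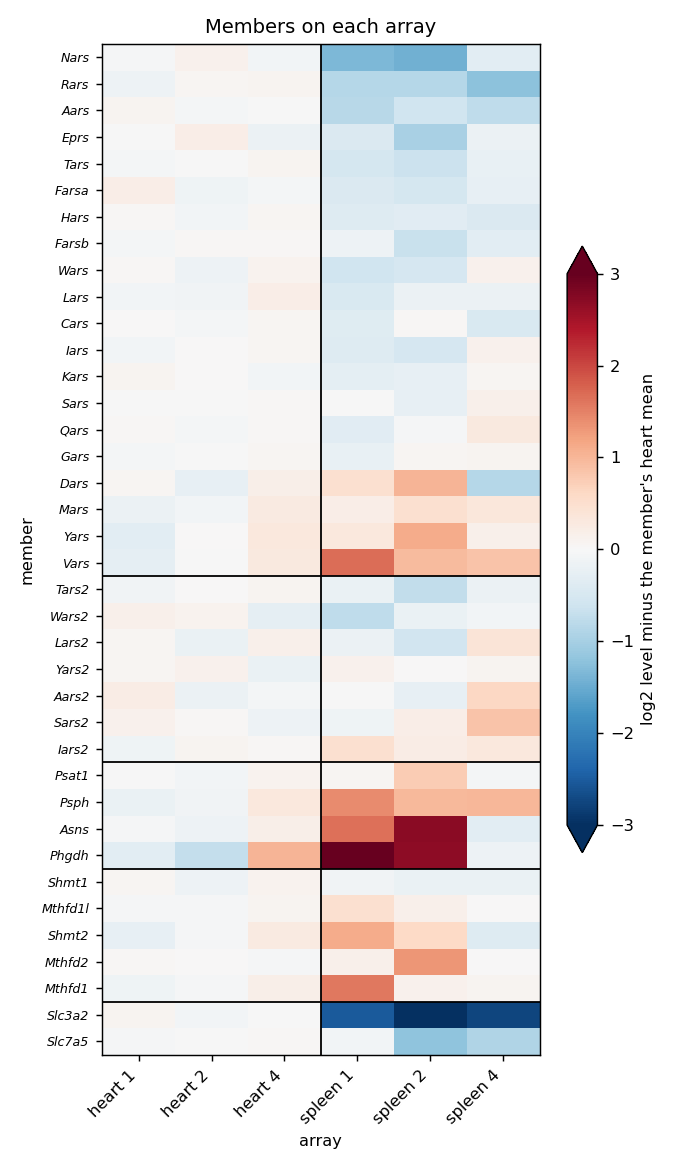
Each cell gives the log2 level of a member (rows, by role) on an array (columns) minus that member's mean over the 3 hearts, on a colour scale from −3 to 3, past which values share the end colour. The hearts are near white except for Phgdh, Slc3a2 is low in every spleen, and Asns and Phgdh are high in spleen 1 and spleen 2 but not in spleen 4.

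Among the folate, methyl and purine genes outside the member list, 22 were tested and the median was 0.19, against 0.10 for all genes. Of these, 5 were called higher (22.7%, against 8.88% of all genes) and 1 lower (4.55%, against 6.52%). Gcsh, the lipoyl-carrying subunit of the glycine cleavage system, was at 3.75, 3.70 and 3.84 in the hearts and at 1.10, 0.83 and 1.51 in the spleens. Its rise of 2.62 ± 0.22 (SE, adjusted p = 0.00187) was the largest of that list. Thymidylate synthase (Tyms) rose by 1.31 ± 0.29 (adjusted p = 0.0314) and Mthfs, which returns folinic acid to the folate pool, by 1.03 ± 0.19 (adjusted p = 0.0189). The others called, named after their values were seen, were Mtr and Mat2a, higher, and the purine synthesis gene Paics, lower (−0.72 ± 0.17, adjusted p = 0.034). Gldc, the decarboxylase that works with GCSH, was at 0.32 ± 0.18 (adjusted p = 0.275).

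A further list held Atf4, known ATF4 targets and the 4 kinases that phosphorylate eIF2α upstream of it. Of its 21 tested genes, 2 were called higher (9.52%, against 8.88% of all genes) and 1 lower (4.76%, against 6.52%). The median was 0.48 against 0.10 for all genes. Of the 4 kinases 0 were called by limma, with a median of −0.06, and 1 of them (Eif2ak3, −0.68) had an unadjusted p under 0.05. The other 17 had a median of 0.65, with 15 positive and 2 negative differences. Atf4 itself was at 5.65, 5.51 and 5.72 in the hearts and at 5.39, 4.95 and 4.60 in the spleens, a difference of 0.65 ± 0.24 that was not called (SE, adjusted p = 0.122). Its activity depends on translation, which these arrays do not measure. Atf3, a stress-induced factor that many signals raise, rose by 3.38 ± 0.43 (adjusted p = 0.0066), and Pycr1, of proline synthesis, by 1.13 ± 0.29 (adjusted p = 0.048). Pycr1 was well above background on 2 of 3 spleen arrays. Chac1, which degrades glutathione, was well above background on 0 of 3 heart arrays and was tested only because of its spleen signal. Its mean over the spleens stood at least 16.8-fold above the background bound of the hearts, −4.87 (limma adjusted p = 0.0268). Chac1 was the only gene of that list called lower. Its spleen levels were −0.18, 0.88 and −3.10, the order found for Asns, so the fold bound of the mean does not hold for spleen 4 alone. Cebpb, the brightest of the list that was not called, was at 1.25 ± 0.36 (adjusted p = 0.0621).

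MYC and mTORC1 raise amino acid import and synthetase expression in growing cells. Among 8 tested regulators, 2 were called higher (25%, against 8.88% of all genes) and 1 lower (12.5%, against 6.52%). These were the folliculin gene Flcn (1.04 ± 0.25, adjusted p = 0.0398), the GTPase gene Rheb (0.88 ± 0.23, adjusted p = 0.0485) and Mlst8, a subunit shared by both mTOR complexes (−1.72 ± 0.34, adjusted p = 0.0233). Max, the partner of MYC, was at −0.18 ± 0.18 (adjusted p = 0.555). Of the 23 genes called on these other lists, 4 (Slc7a8, Gcsh, Atf3 and Pars2) stayed called without each of the 6 arrays, and each of the others lost the call whenever a heart array was left out.

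**Figure D4:**
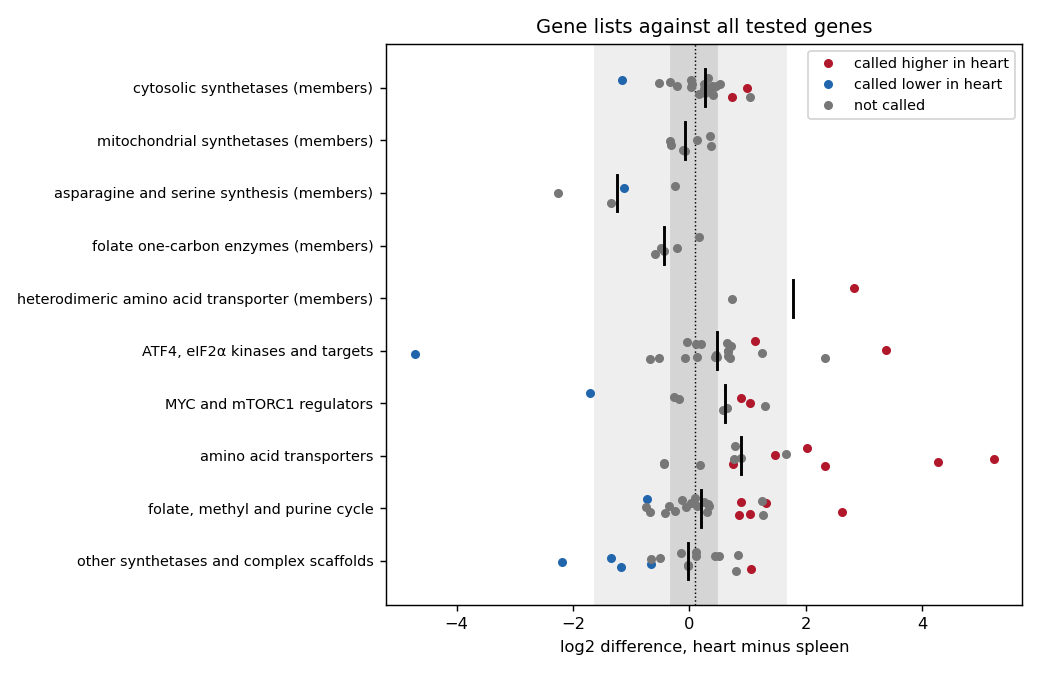
Each point is the log2 difference of a tested gene (x axis, heart minus spleen), by gene list (y axis), in red where called higher in heart, blue where called lower and grey where not called. Vertical bars are list medians, the dotted line is the median of all 16365 genes (0.10), and the shaded bands run from the 25th to the 75th (−0.32 to 0.47) and from the 5th to the 95th percentile (−1.63 to 1.66) of all genes.

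The members varied more among the spleens than among the hearts, as did genes in general. The median SD over 3 samples was 0.13 log2 units in heart and 0.33 in spleen for the members, and 0.14 and 0.41 for all tested genes. The SD was larger in spleen for 31 of 38 members (81.6%, against 84.3% of all genes). Spleen 4 was the spleen nearest to the heart mean for 18 of the 38 members, spleen 1 for 11 and spleen 2 for 9. The same count was not made for all tested genes, so it is not shown to be particular to the members. Without spleen 4, 5 members were called higher and 4 lower, against 2491 and 1599 of all 16365 genes. Of the 12 members with a second probe, 10 had it tested, and all 10 second probes had the same sign as the first.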

How the data were processed

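Myeloid cells from 3 infarcted hearts and 3 spleens were measured on 6 single-colour arrays. The submitters' processing notes name Agilent Feature Extraction 10.7.3.1. The deposited processed signal is, per the file headers, a background-corrected intensity on a linear scale. The deposited value table holds log2 values with a median of 0 in each column. Over pairs of arrays, its differences followed those of the quantile-scaled log2 signal in size and direction (slopes 0.95 to 0.99, r at least 0.9918), and whether its genes were centred is not stated. It was used as an alternative.

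Here control and outlier spots were left out, log2 intensity was averaged per probe, and the 75th percentile of each array was subtracted. A probe was tested where it was well above background on all 3 arrays of a tissue. Genes were named by RefSeq accession (26412 of 39429 probes) or otherwise by the name in the files, with the brightest probe for each gene. Tissues were compared with limma 3.58.1 in R 4.3.3 (two-sided), with Benjamini-Hochberg adjustment over 16365 genes and a threshold of 0.05. The procedure was tested on simulated data with the same SD in both tissues. In these data the SD of most genes was larger in spleen, which the simulation did not cover. With 3 samples a tissue, their number limits the precision.

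Slides 1, 2 and 3 held spleens 1 and 2, spleen 4 with heart 1, and hearts 2 and 4. The labels do not say that a number marks the same mouse, so no pairing was used. Deviations of same-numbered samples from their tissue means correlated at r = −0.05, 0.04 and 0.01, within the range of other pairs (−0.07 to 0.05). With 3 samples a tissue, these values cannot show whether a number marks a mouse. Alternatives were other scaling, background correction, filters, probe averaging, priors, array weights, blocks for replicate, slide and date, and leaving out each array. The members and gene lists were chosen with earlier results of these data known. Named were all members and, from every other list, the 3 called genes with the largest change and the brightest gene not called. Slc7a6, Slc1a5, Aimp1, Gldc and Atf4 were added after their values were seen. Some genes that this rule names are not reported here.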

Additional observations from a re-analysis of the deposited data

How the results depend on the processing

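With 3 against 3 arrays, the counts of called members (3 higher and 2 lower) moved with the processing, while directions of the 5 called members held in all 20 alternatives. Members called lower were 0 with median scaling and with array weights, and 1 with the authors' value table and with date as a block, which both lost Vars. All genes called lower numbered 786 with median scaling, 917 with array weights, 1127 with the value table and 989 with date as a block. Without a filter on dim probes, 1 was called higher and 0 lower, against 928 and 521 of the 28298 genes then tested. With slide as a fixed block, 0 members were called in either direction, against 72 higher and 13 lower of all 16365 genes. Slc3a2 kept a difference of 2.83 there (adjusted p = 0.0811). Leaving out 1 array gave 1 to 5 members called higher and 0 to 4 lower: 1 and 0 without any one heart array, and 5 and 4 without spleen 4. Of all genes, 321 to 352 were called higher and 123 to 151 lower without a heart array, and 2491 and 1599 without spleen 4. The earlier date alone gave 2 higher and 3 lower, against 1035 and 730 of all genes. Only 2 of the 5 main calls were among these, and the 3 called lower were genes of asparagine and serine synthesis. Normexp background, probes above background on all 6 arrays, mean of probes, slide as a random block and the trended robust prior kept all 5 calls. The cause of each change was not tested.

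With the replicate number as a block, 1 member (Slc3a2) was called higher and 0 lower, against 919 and 668 of all genes. The pairing of numbers is not given by the labels.

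Some members that were not called changed sign. With median scaling these were Aars2 (0.0067) and Yars2 (0.0516). With quantile scaling they were Gars (−0.27), Kars (−0.0896), Qars (−0.23) and Sars (−0.13), and in the authors' value table Gars (−0.27), Kars (−0.0866), Qars (−0.22), Sars (−0.13) and Aars2 (0.0015). With slide as a fixed block they were Dars (0.92), Gars (−0.14), Iars (−0.20), Qars (−0.26), Sars (−0.16), Wars (−0.0896), Lars2 (−0.32), Asns (0.27), Psat1 (0.0626), Shmt2 (0.14) and Mthfd2 (0.024). Within the earlier date they were Aars2 (0.16), Sars2 (0.0327) and Yars2 (0.0333). Leaving out 1 array gave ranges that crossed 0 for Gars (−0.0676 to 0.0882), Qars (−0.1278 to 0.1915), Dars (−0.7552 to 0.1883), Sars (−0.0651 to 0.1321), Lars2 (−0.1028 to 0.3713), Psat1 (−0.4036 to 0.0087), Aars2 (−0.3035 to 0.1344) and Yars2 (−0.1434 to 0.0251).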
